A study of Mus musculus with 4 samples.

Results

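The genes described here are 7 tubulin genes and 1 stathmin gene of mouse brain microglia, namely Tuba1a, Tuba1b and Tuba1c, which encode alpha-tubulin, Tubb2a, Tubb4b, Tubb5 and Tubb6, which encode beta-tubulin, and Stmn1, which encodes stathmin. They were chosen by symbol, 8 of the 19737 genes in the deposited count matrix, and all 8 had enough UMIs to be tested in every fit. Microglia were sorted from the brains of 20 mice, 4 in each of 5 groups, 24 h after a single IV dose of 10 mg/kg, and were profiled by 10x single-cell RNA sequencing in 4 pools that each held 1 mouse of every group. WT mice received ATV:ISO or ATV:4D9, and AppSAA mice received ATV:ISO, 4D9 or ATV:4D9. All 20 mice were homozygous for TfRmu/hu, a transferrin receptor in which the apical domain is human, so the control mice carry it too. AppSAA mice have mutations knocked into the mouse App gene and form amyloid plaques. 4D9 is an antibody that activates mouse TREM2, ATV:4D9 is the same binder on an Fc that also binds the human transferrin receptor and so enters the brain better, and ATV:ISO is the isotype control. The label of the control antibody, ATV-DNP02, was read as ATV:ISO. The study's animal summary lists the mice of the AppSAA line as males of 8 months, the labels give no age, and 1 WT ATV:ISO mouse is recorded as female. The texts differ on whether cortex alone or cortex with hippocampus was used and on whether CD45 was part of the sort.

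Microtubules are hollow polymers of alpha- and beta-tubulin dimers that carry vesicles, shape cell processes and, in dividing cells, build the mitotic spindle. Mammals make each kind of tubulin from several genes, called isotypes, whose proteins mix in the same polymer and differ mainly at the tail. Stathmin holds free dimers and promotes the shrinking of microtubules, and it is turned off by phosphorylation when a cell enters mitosis. In resting microglia the microtubule network supports the long, branched processes with which these cells survey the brain.

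Totals ranged from 17150296 to 102446549 UMIs per mouse and from 2193 to 6126 cells, 74758 cells in all. Cells held more UMIs after ATV:4D9, with a median per mouse of 6859 to 8173.5 in WT ATV:ISO and 13479 to 17290 in WT ATV:4D9 mice, and of 8444.5 to 9883.5 and 13560 to 16475 in the AppSAA mice, so a level per total and a level per cell can differ in direction. The 5 microglial markers P2ry12, Tmem119, Cx3cr1, Sall1 and Siglech summed to between 3591 and 11883 CPM, the UMIs of a gene per 1000000 UMIs of all genes, in each mouse. The neuronal list, of interest because neurons are rich in tubulin and stathmin, summed to 0.44 to 2.23 CPM, and the oligodendrocyte and endothelial lists stayed at or below 71.9 CPM, the border macrophage, monocyte and neutrophil lists at or below 33.6 CPM and the astrocyte and T and NK cell lists at or below 6.73 CPM. The B cell list reached 303.7 CPM, of which Ighm made up 160.9 to 274.1 CPM and Cd79b 15.6 to 30.5 CPM, while Cd79a and Ms4a1 stayed at or below 0.50 CPM. That list summed to 275.9 to 303.7 CPM in WT ATV:ISO and 202.6 to 216.1 CPM in WT ATV:4D9 mice, and its part in the results was not tested. The deposited coarser clustering has 6 clusters, of which 0 and 3 are homeostatic, 1 is the plaque-associated cluster, 2 holds most of the responding cells outside the cycling cluster, 4 is the cycling cluster and 5 the interferon cluster. Between pools, 543 cell barcodes recurred.

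The starts of 4 members are shown because they bracket the patterns below: Tubb5 and Tuba1b carried most of the tubulin UMIs after ATV:4D9, Tubb4b depended most on the phase of the cell cycle, and Tuba1a did not rise in CPM over all cells. Each line gives the 250 bases before the annotated start on the gene's own strand, from RefSeq on GRCm38.p6, with capitals marking the letters CCAAT and TTTGAA.

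Tubb5: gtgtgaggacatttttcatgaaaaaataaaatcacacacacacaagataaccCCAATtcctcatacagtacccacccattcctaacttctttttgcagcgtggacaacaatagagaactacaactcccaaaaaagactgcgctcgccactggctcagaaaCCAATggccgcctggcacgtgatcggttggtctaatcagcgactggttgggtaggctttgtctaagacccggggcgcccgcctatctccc

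Tubb4b: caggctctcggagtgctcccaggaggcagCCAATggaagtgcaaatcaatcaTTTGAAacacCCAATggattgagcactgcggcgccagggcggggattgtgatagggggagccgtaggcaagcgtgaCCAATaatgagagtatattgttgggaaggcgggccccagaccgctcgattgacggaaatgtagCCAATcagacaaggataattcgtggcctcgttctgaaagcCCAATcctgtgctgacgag

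Tuba1b: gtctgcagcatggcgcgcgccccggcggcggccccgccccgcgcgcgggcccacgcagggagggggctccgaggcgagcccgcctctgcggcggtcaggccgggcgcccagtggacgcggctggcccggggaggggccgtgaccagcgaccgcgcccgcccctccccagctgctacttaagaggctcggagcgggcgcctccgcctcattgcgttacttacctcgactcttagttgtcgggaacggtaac

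Tuba1a: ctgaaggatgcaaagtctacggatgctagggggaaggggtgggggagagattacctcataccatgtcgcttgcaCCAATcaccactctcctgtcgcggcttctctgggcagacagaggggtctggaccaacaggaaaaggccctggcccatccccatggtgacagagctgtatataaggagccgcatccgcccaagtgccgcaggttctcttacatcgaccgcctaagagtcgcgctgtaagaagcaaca

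These stretches are chr17:35838302-35838551 for Tubb5, chr2:25224703-25224952 for Tubb4b, chr15:98934391-98934640 for Tuba1b and chr15:98953502-98953751 for Tuba1a, all on the minus strand. The letters searched on both strands, over 250 bases before and 50 after the start, were CCAAT, and TTTGAA or TTCGAA, the letters of the cell cycle homology region. CCAAT is present in 37.4% of the 32851 promoters in the RefSeq table and the second set in 19.2%. The letters of the E2F site, also searched, are present in 2.26% of promoters and had no match in the windows of the members. Tubb4b had 5 matches to CCAAT, at -221, -188, -122, -59 and -19 from the start, and 1 to TTTGAA at -198. Tubb5 had 2 matches to CCAAT, Tuba1a and Tuba1c had 1 each, and Tuba1b and Tubb2a had none in these windows. Promoters of 6 members were in the table, and Stmn1 and Tubb6 were not.

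On the same build the 3 alpha-tubulin genes lie close together, Tuba1b at chr15:98931429-98934390, Tuba1a at chr15:98949847-98953501 and Tuba1c at chr15:99029891-99038105. Tubb2a is at chr13:34074278-34078008, Tubb4b at chr2:25222158-25224702, Tubb5 at chr17:35833920-35838301 and Stmn1 at chr4:134468320-134473843. The coding sequences of the tubulin genes are near-identical in places, and how reads shared between them were counted is not given in the sources used here, so the split between isotypes is uncertain. This assay counts tags per molecule rather than per base, so CPM is not divided by gene length, and comparisons are made for the same gene between mice or between clusters.

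ATV:4D9 raised 6 of the 8 members in WT mice 1 day after the dose. Stmn1 rose most, followed by Tubb5, Tubb6, Tuba1c, Tuba1b and Tubb4b, while Tuba1a was slightly lower and Tubb2a did not pass the test. The comparison asks what TREM2 activation in the brain does to microglia without amyloid. For scale, edgeR called 63.3% of the 14058 genes tested, 30.8% as higher in WT ATV:4D9 mice, so a single call in this contrast is not unusual.

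Among the alpha-tubulins, Tuba1b, the broadly expressed isotype, stood at 295.1, 279.0, 261.5 and 324.2 CPM in the WT ATV:ISO mice of pools 1 to 4 and at 911.1, 837.2, 842.1 and 896.7 CPM in the WT ATV:4D9 mice. The groups were far apart, and the lowest treated mouse was above the highest control. The log2 fold change was 1.71 ± 0.12 (SE, n = 4 mice per group, edgeR quasi-likelihood test, adjusted p = 9.1e-11). Tuba1c, a scarcer isotype, moved from 13.1 to 16.5 CPM in controls to 45.8 to 57.6 CPM after ATV:4D9, a log2 fold change of 1.93 ± 0.17 (edgeR, adjusted p = 6.1e-09).

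Tuba1a, the isotype best known from growing neurons, was at 223.4, 226.2, 210.3 and 201.4 CPM in WT ATV:ISO mice and at 172.0, 170.3, 159.6 and 156.4 CPM in WT ATV:4D9 mice. Again the groups did not overlap, with every treated mouse lower. The difference of -0.27 ± 0.11 on the log2 scale passed the test by little (edgeR, adjusted p = 0.038), and the call was lost under RLE scaling (-0.24, adjusted p = 0.074), in DESeq2 (-0.24, adjusted p = 0.066) and with only cells of 1000 to 25000 UMIs (-0.18, adjusted p = 0.14). It was also lost without any of the WT ATV:ISO mice of pools 1 and 2, the WT ATV:4D9 mice of pools 2, 3 and 4 or the AppSAA ATV:4D9 mouse of pool 4 (edgeR, adjusted p from 0.063 to 0.11). Counted per cell rather than per total, Tuba1a had a mean of 1.85 UMIs in controls and 2.75 after ATV:4D9, the opposite direction. After ATV:4D9 the cells also held more UMIs of all genes.

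Among the beta-tubulins, Tubb5, the most widely expressed beta isotype, was at 309.4, 266.3, 272.5 and 296.0 CPM in WT ATV:ISO mice and at 1205.7, 1001.1, 1136.8 and 1073.4 CPM in WT ATV:4D9 mice. No treated mouse came near the control range. The log2 fold change was 2.07 ± 0.12 (edgeR, adjusted p = 1.1e-11), and per cell the mean rose from 2.46 to 18.5 UMIs. Tubb4b, a broadly expressed isotype of spindles and cilia, went from 45.4 to 54.8 CPM to 98.5 to 127.6 CPM, a log2 fold change of 1.23 ± 0.15 (edgeR, adjusted p = 7.5e-07).

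Tubb6, a low-abundance isotype, had 6.6, 6.1, 8.5 and 7.3 CPM in WT ATV:ISO mice against 27.2, 19.9, 27.3 and 27.9 CPM in WT ATV:4D9 mice. The mouse of pool 2 was the lowest of the treated group and still above every control. The fitted change was 1.97 ± 0.21 on the log2 scale (edgeR, adjusted p = 6.6e-08). Tubb2a, an isotype common in neurons, spanned 83.0 to 122.3 CPM in controls and 79.0 to 98.9 CPM after ATV:4D9, and the groups overlapped. Its log2 fold change was -0.10 ± 0.31 (edgeR, adjusted p = 0.79). That SE comes from a fit over the mice of all groups, among them AppSAA mice with low Tubb2a described below. Per cell, Tubb2a had 0.79 to 1.02 UMIs in controls and 1.43 to 1.48 after ATV:4D9, without overlap. The median UMIs of all genes per cell did not overlap either, at 6859 to 8173.5 and 13479 to 17290. The part of depth in the level per cell was not tested.

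Stmn1 showed the widest separation of the 8 genes. WT ATV:ISO mice had 63.0, 49.9, 60.8 and 59.0 CPM, and WT ATV:4D9 mice had 697.3, 559.8, 559.4 and 507.4 CPM. In absolute terms a mean of 0.50 UMIs per cell became 9.69. The log2 fold change was 3.44 ± 0.16 (edgeR, adjusted p = 2.4e-13).

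**Figure D1:**
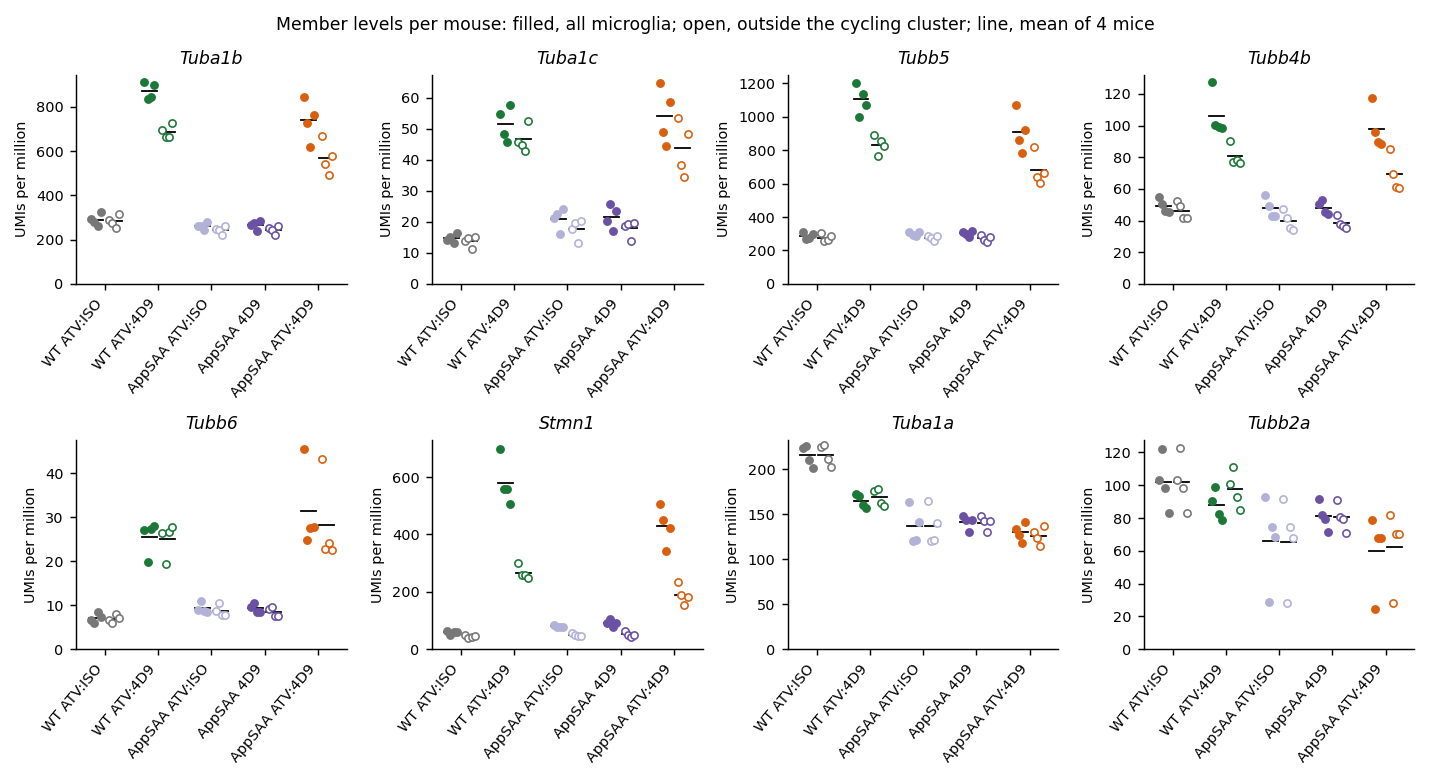
Level of each member in CPM (vertical axis, starting at 0) in the 4 mice of each group, over all microglia (filled points) and over the cells outside cycling cluster 4 (open points), with a line at the mean of 4 mice. Tuba1b, Tuba1c, Tubb4b, Tubb5, Tubb6 and Stmn1 are high in both ATV:4D9 groups in filled and open points alike, and Tuba1a and Tubb2a are not.

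In AppSAA mice, which asks what the same dose does to microglia that already face amyloid, ATV:4D9 raised the same 6 members over ATV:ISO and left Tuba1a and Tubb2a uncalled. Of all genes tested, edgeR called 27.9% as higher in this contrast. Stmn1 was at 85.8, 76.4, 78.0 and 77.8 CPM with ATV:ISO and at 505.5, 449.8, 342.5 and 422.0 CPM with ATV:4D9. The treated mice were all well above the controls, with the mouse of pool 3 the lowest. On the log2 scale the rise was 2.51 ± 0.15 (edgeR, adjusted p = 2.8e-11).

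Tubb5 went from 309.3, 294.3, 287.8 and 309.9 CPM with ATV:ISO to 1071.4, 862.5, 782.7 and 919.4 CPM with ATV:4D9 (log2 fold change 1.68 ± 0.12, edgeR, adjusted p = 3.9e-10). Tuba1b went from 261.7, 260.5, 242.4 and 279.1 CPM to 842.6, 727.4, 619.0 and 765.1 CPM (log2 fold change 1.58 ± 0.11, edgeR, adjusted p = 4.9e-10). For both genes the mice did not overlap and pool 1 gave the highest treated value and pool 3 the lowest.

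The scarcer members followed. Tuba1c rose by 1.45 ± 0.16 and Tubb4b by 1.11 ± 0.15 on the log2 scale (edgeR, adjusted p = 3.1e-07 and 4.0e-06). Tubb6 had 9.0, 10.9, 8.7 and 8.4 CPM with ATV:ISO and 45.6, 24.8, 27.6 and 27.7 CPM with ATV:4D9, so the mouse of pool 1 stood apart upward within a group that was entirely above its control. The fitted rise was 1.86 ± 0.19 (edgeR, adjusted p = 1.1e-07). Tuba1a differed by 0.00 ± 0.11 and Tubb2a by -0.05 ± 0.31 (edgeR, adjusted p = 0.99 and 0.90).

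With the antibody that lacks the transferrin receptor binding site, none of the 8 genes passed the test. Stmn1 stood at 92.1, 103.8, 76.4 and 91.4 CPM in AppSAA 4D9 mice, overlapping the ATV:ISO mice, with a log2 difference of 0.21 ± 0.15. The other 7 members differed by between 0.01 and 0.32 on the log2 scale, the latter for Tubb2a with an SE of 0.31. With edgeR 0 of the 8 members were called and 0 had an unadjusted p under 0.05, DESeq2 and limma-voom also called 0 of the 8, and of all 14058 genes edgeR called 0 (0%), with 79 at an unadjusted p under 0.05, limma-voom 0 and DESeq2 1. At matched dose and time ATV:4D9 exceeded 4D9 for the same 6 members, by 2.31 ± 0.15 for Stmn1, 1.66 ± 0.12 for Tubb5, 1.54 ± 0.11 for Tuba1b, 1.84 ± 0.20 for Tubb6, 1.39 ± 0.16 for Tuba1c and 1.09 ± 0.15 for Tubb4b (edgeR, adjusted p from 1.1e-10 to 5.3e-06, against 27.6% of all genes called higher). This contrast shares the ATV:4D9 mice with the one above.

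Under the isotype control antibody, AppSAA and WT mice were compared directly. Between AppSAA ATV:ISO and WT ATV:ISO mice edgeR called 28.1% of all genes in either direction and 4 of the 8 members. Stmn1 was higher by 0.64 ± 0.15 (adjusted p = 0.0025), every AppSAA mouse lying above every WT mouse, and Tuba1c by 0.70 ± 0.17 (adjusted p = 0.0040). Outside cluster 4 the difference of Stmn1 was 0.38 ± 0.16 and not called (adjusted p = 0.088). It was called there with the pool as a block and without the AppSAA ATV:4D9 mouse of pool 1 (0.38, edgeR, adjusted p = 0.040). Cluster 4 held 24.6% of the Stmn1 UMIs in WT ATV:ISO and 39.6% in AppSAA ATV:ISO mice. Tuba1a was lower, with 164.0, 120.2, 121.5 and 140.7 CPM in AppSAA mice, all below the WT mice, a difference of -0.47 ± 0.11 (adjusted p = 0.0031). Tubb6 passed narrowly at 0.57 ± 0.21 (adjusted p = 0.046) and was lost with the pool as a block (0.56, adjusted p = 0.070) and in 9 of 20 fits without a single mouse (adjusted p from 0.050 to 0.14), while Tubb5 at 0.26 ± 0.12 (adjusted p = 0.11) was called with that block (adjusted p = 0.0022) and without the AppSAA ATV:4D9 mouse of pool 1 (0.26, adjusted p = 0.046). With only cells of 1000 to 25000 UMIs, Stmn1 (0.40, adjusted p = 0.079) and Tubb6 (0.45, adjusted p = 0.14) were not called, which left Tuba1a and Tuba1c. Plaque-associated cluster 1 made up 38.3% of the cells in AppSAA ATV:ISO mice and 1.41% in WT ATV:ISO mice, and Tuba1a was low in that cluster, so in the sums over all cells a different mix of cells and a different level per cell cannot be told apart.

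Within the homeostatic clusters the same comparison gave no call among the members. There edgeR called 0.311% of 12545 genes and 0 of the 8, with 1 member, Tubb6, at an unadjusted p under 0.05 (log2 difference -0.59 ± 0.21, adjusted p = 0.67), and DESeq2 and limma-voom also called 0. With the pool as a block Tubb6 was called as lower (-0.62, adjusted p = 0.014). Tuba1a differed there by -0.17 ± 0.10 and Stmn1 by 0.08 ± 0.12.

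The response of Stmn1 to ATV:4D9 was smaller in AppSAA than in WT mice on the log2 scale. The interaction, the difference between the log2 fold changes of the 2 genotypes, was -0.93 ± 0.21 (edgeR, adjusted p = 0.0061), where 9.04% of all genes were called. AppSAA minus WT mice gave 0.64 ± 0.15 with ATV:ISO and -0.29 ± 0.14 with ATV:4D9, the latter not called (edgeR, adjusted p = 0.24). The higher level of the AppSAA controls thus enters the interaction too. Stmn1 was the single member called, and with the pool as a block Tubb5 (-0.41, adjusted p = 0.0020), Tuba1c (-0.48, adjusted p = 0.030) and Tuba1a (0.28, adjusted p = 0.011) were called as well. Without the AppSAA ATV:4D9 mouse of pool 1, 2 members were called. Cycling cells held 39.95% of cells in WT ATV:4D9 and 22.4% in AppSAA ATV:4D9 mice, and 0.351% and 0.949% in the corresponding ATV:ISO groups. Of 28 S phase genes 21, and of 45 G2 and M phase genes 22, were also called as lower in this interaction, and their part in the result was not tested.

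Compared directly, the ATV:4D9 groups of AppSAA and WT mice gave no call among the members in the main fit, which had no pool term. There 11.9% of all genes were called. Of the 8 members, 1 had an unadjusted p under 0.05, and DESeq2 and limma-voom called 0. With the pool as a block, Stmn1 (-0.30, adjusted p = 0.020) and Tuba1a (-0.20, adjusted p = 0.0084) were called as lower in AppSAA mice, and without the AppSAA ATV:4D9 mouse of pool 1 edgeR called 1 member.

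Cycling cells were then separated from the rest, since dividing cells build a spindle from tubulin. Cluster 4 contained 39.95% of the cells and 44.4% of all UMIs of WT ATV:4D9 mice, and it contained 74.3% of their Stmn1 UMIs, 58.0% of Tubb5, 57.8% of Tubb4b, 56.2% of Tuba1b, 49.7% of Tuba1c and 45.6% of Tubb6. Tuba1a at 43.1% and Tubb2a at 38.4% were below the share of all UMIs, and Tubb6 was close to it. In AppSAA ATV:4D9 mice the cluster held 27.3% of all UMIs. It contained 67.9% of Stmn1, 48.7% of Tubb4b, 45.5% of Tubb5, 43.7% of Tuba1b and 41.8% of Tuba1c UMIs. Tubb6 at 35.3% and Tuba1a at 29.4% were above the share of all UMIs there, and Tubb2a at 22.8% was below it.

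The CPM gained over ATV:ISO can be divided into UMIs that lie in cells of cluster 4 and the remainder. Cells of cluster 4 held 80.0% of the gain in Stmn1 CPM in WT mice (SD 2.67 over 4 pools), 82.5% for Tuba1b, 77.2% for Tubb5, 66.4% for Tuba1c and 61.9% for Tubb6. In AppSAA mice the figures were 74.5% for Stmn1, 63.3% for Tuba1b, 63.5% for Tubb5, 77.3% for Tubb4b, 57.6% for Tuba1c and 46.2% for Tubb6. For Tubb4b in WT mice the figure was 102%, above the whole gain, as the UMIs outside cluster 4 then made up slightly fewer CPM of the total than with ATV:ISO. The smallest part in both genotypes was that of Tubb6. These figures also depend on the size of the cluster. It held 0.79% of all UMIs in WT ATV:ISO and 44.4% in WT ATV:4D9 mice, and 1.81% and 27.3% in the AppSAA mice. A gene that rose alike in every cell would thus also place part of its gain in cluster 4, and the size of that part was not calculated.

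Outside cluster 4, in cells called non-cycling here for that assignment alone, the same 6 members were still higher after ATV:4D9. Stmn1 was at 49.1, 40.1, 42.2 and 45.0 CPM in the non-cycling cells of WT ATV:ISO mice and at 301.8, 260.0, 260.4 and 247.3 CPM in those of WT ATV:4D9 mice, again without overlap. On the log2 scale this was 2.81 ± 0.17 (edgeR, adjusted p = 2.8e-11), with 31.1% of 13663 genes called higher. Tubb6 and Tuba1c had 2.07 ± 0.23 and 1.97 ± 0.18, no lower than over all cells, while Tubb5, Tuba1b and Tubb4b had 1.79 ± 0.13, 1.48 ± 0.12 and 1.00 ± 0.16 (edgeR, adjusted p from 3.4e-10 to 2.0e-05). Tuba1a at -0.16 ± 0.11 was not called without the block (adjusted p = 0.23) and was called with it (adjusted p = 0.015).

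In AppSAA mice the non-cycling cells gave 2.09 ± 0.16 for Stmn1, 1.86 ± 0.22 for Tubb6, 1.43 ± 0.17 for Tuba1c, 1.43 ± 0.13 for Tubb5, 1.36 ± 0.12 for Tuba1b and 0.94 ± 0.16 for Tubb4b (edgeR, adjusted p from 2.3e-09 to 6.5e-05, with 26.1% of genes called higher). Against 4D9 the 6 rises were between 0.97 and 2.00, with 26% of genes called higher. Between 4D9 and ATV:ISO 0 members were called by edgeR, DESeq2 and limma-voom, 0 had an unadjusted p under 0.05, and 0% of genes were called by edgeR, with 68 at an unadjusted p under 0.05, 0 by limma-voom and 1 by DESeq2. Between the ATV:ISO groups, where 24.3% of genes were called, Tuba1a was lower in AppSAA mice by 0.43 ± 0.11 on the log2 scale and Tuba1c was higher by 0.60 ± 0.18 (edgeR, adjusted p = 0.0055 and 0.017), and the latter was lost without the mouse of pool 3 in the WT group (0.50, adjusted p = 0.068) or of pool 2 in the AppSAA group (0.53, adjusted p = 0.059). With the block, Stmn1 (0.38, adjusted p = 8.7e-05) and Tubb5 (0.23, adjusted p = 0.0081) were called there as well.

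For the non-cycling cells the interaction of Stmn1 was -0.72 ± 0.22 and missed the threshold with edgeR (adjusted p = 0.057, 6.62% of genes called). Of the 8 members 2 had an unadjusted p under 0.05 and DESeq2 and limma-voom each called 1, Stmn1. With the pool as a block Stmn1 (-0.74, adjusted p = 9.3e-06), Tuba1c (-0.55, adjusted p = 0.014) and Tubb5 (-0.38, adjusted p = 0.0054) were called. Directly between the ATV:4D9 groups 0 members were called in non-cycling cells by edgeR, DESeq2 and limma-voom (2 at an unadjusted p under 0.05, 11.2% of genes called), and with the block Stmn1 (-0.36, adjusted p = 0.00017) and Tuba1a (-0.27, adjusted p = 0.00083) were lower in AppSAA mice.

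Cells outside cluster 4 were not free of cell cycle transcripts after ATV:4D9, as all 28 S phase genes were called higher among them in WT mice and 36 of 44 G2 and M phase genes. When every cell with a UMI of Mki67, Top2a, Cdk1, Birc5, Tyms, Rrm2, Mcm5 or Mcm6 was also removed, with cells thinned to 3000 UMIs for that step alone, the rises in WT mice were 2.33 ± 0.16 for Stmn1, 2.01 ± 0.26 for Tubb6, 1.96 ± 0.18 for Tuba1c, 1.56 ± 0.13 for Tubb5, 1.30 ± 0.12 for Tuba1b and 0.96 ± 0.15 for Tubb4b. All 6 were called by edgeR in WT and in AppSAA mice, where Stmn1 was at 1.501 ± 0.15, Tubb6 at 1.71 ± 0.24 and Tubb5 at 1.13 ± 0.13. In this filter and the next, cells under 3000 UMIs were dropped, and a kept cell could hold cell cycle UMIs beyond the 3000 drawn. The most stringent choice, cells thinned alike and without a UMI of any S or G2 and M phase gene, left 29 to 83 cells per WT ATV:4D9 mouse. There Stmn1 fell to 0.93 ± 0.18, close to Tuba1b at 0.89 ± 0.13, whereas Tuba1c and Tubb6 stayed at 1.82 ± 0.25 and 1.77 ± 0.33 (edgeR, adjusted p = 0.00038, 3.6e-06, 1.8e-06 and 0.00023 in that order). In AppSAA mice the same cells gave 0.46 ± 0.14 for Stmn1, 0.93 ± 0.20 for Tubb6 and 0.51 ± 0.17 for Tubb4b, the last not called (adjusted p = 0.057).

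**Figure D2:**
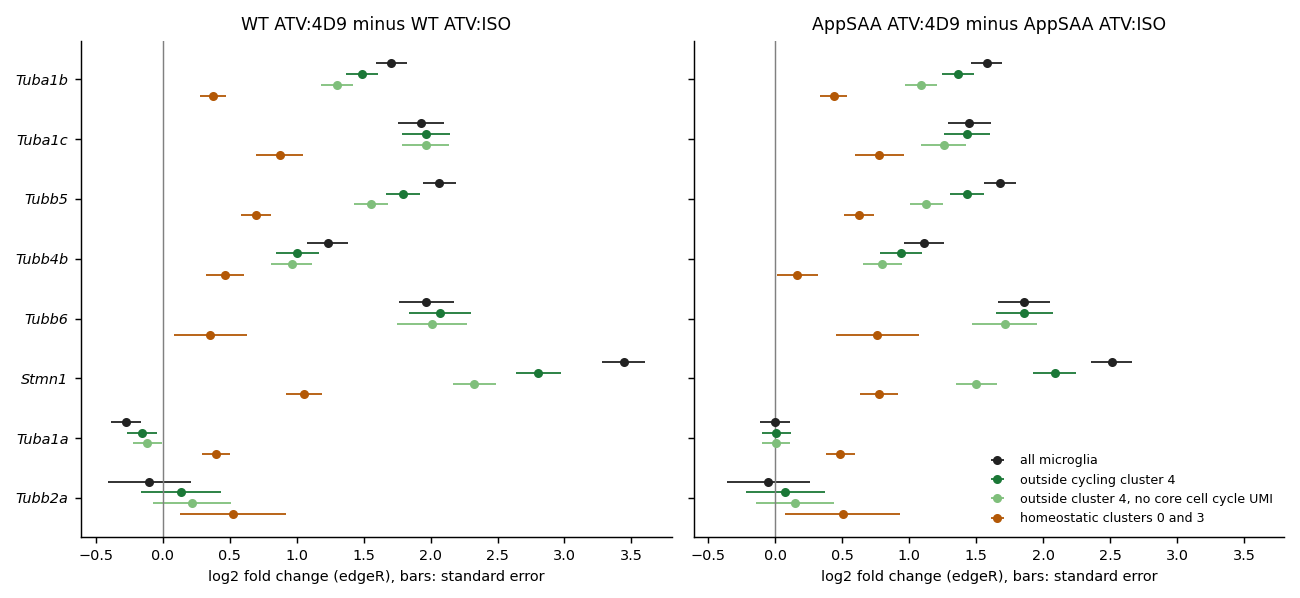
Log2 fold change of each member from the edgeR fit with its standard error (horizontal axis), ATV:4D9 against ATV:ISO, in WT mice (left) and AppSAA mice (right), over 4 sets of cells. In WT mice Stmn1 is at 3.44 over all cells and 2.81 outside cluster 4. There it is at 2.33 in cells that after thinning held no UMI of the 8 cell cycle genes. It is at 1.05 in the homeostatic clusters, which were not filtered on those genes. Tubb6 and Tuba1c stay near 2 until the homeostatic clusters.

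In the sum of homeostatic clusters 0 and 3, which kept 3.11% and 4.56% of the cells of WT ATV:4D9 mice, several members were higher by less. Cells were assigned to these clusters by their expression. Over all mice, 160 cells of cluster 0 and 517 of cluster 3 fall in cluster 1 of the finer clustering, which holds responding cells. The part of those cells in the rises was not tested. Stmn1 was at 44.6, 36.2, 40.4 and 42.5 CPM in WT ATV:ISO mice and at 90.2, 76.8, 70.9 and 77.6 CPM in WT ATV:4D9 mice, with no overlap. The log2 fold change was 1.05 ± 0.13 (edgeR, adjusted p = 1.8e-05, with 4.21% of 12545 genes called higher). Tuba1c (0.87 ± 0.17), Tubb5 (0.69 ± 0.11), Tuba1a (0.40 ± 0.11) and Tuba1b (0.37 ± 0.10) were higher too (edgeR, adjusted p = 0.0021, 0.00025, 0.022 and 0.021). Tubb4b at 0.47 ± 0.14 missed the threshold (adjusted p = 0.051) and was called with the block (0.44, adjusted p = 6.3e-05).

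Tuba1a, lower over all cells, was higher in the sum of these clusters. Its values were 228.6, 235.2, 215.6 and 206.6 CPM in WT ATV:ISO mice and 283.0, 259.7, 271.4 and 278.9 CPM in WT ATV:4D9 mice, the lowest treated mouse above the highest control. The mix of the clusters differed as well, since 60.4% of the cells of WT ATV:ISO mice were in cluster 0 and 35.8% in cluster 3, where Tuba1a is more abundant. In cluster 0 alone Tuba1a spanned 177.8 to 198.7 CPM in WT ATV:ISO and 146.9 to 248.7 CPM in WT ATV:4D9 mice, which overlapped. In cluster 3 alone it spanned 239.0 to 295.6 CPM and 297.6 to 329.2 CPM, which did not. The clusters were not tested separately, and the part of the mix in the rise of Tuba1a and of the other members was not tested.

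Without the WT ATV:4D9 mouse of pool 1, Tuba1a (0.34, adjusted p = 0.10) and Tuba1b (0.34, adjusted p = 0.081) were not called, and the same held without the WT ATV:ISO mouse of pool 3 (0.37 and 0.31, adjusted p = 0.071 and 0.095) or the WT ATV:4D9 mouse of pool 4 (0.38 and 0.35, adjusted p = 0.059 and 0.064). Tuba1a was lost without the WT ATV:ISO mouse of pool 4 as well (0.35, adjusted p = 0.077) and Tuba1b without that of pool 2 (0.36, adjusted p = 0.062). In AppSAA mice, with 3.31% of genes called higher, the rises were 0.77 ± 0.14 for Stmn1, 0.78 ± 0.18 for Tuba1c, 0.63 ± 0.11 for Tubb5, 0.49 ± 0.11 for Tuba1a and 0.44 ± 0.10 for Tuba1b (edgeR, adjusted p from 0.0012 to 0.011). There Tuba1b was lost without the ATV:ISO mouse of pool 3 (0.38, adjusted p = 0.052) or the ATV:4D9 mouse of pool 1 (0.35, adjusted p = 0.064), and Tuba1c without the ATV:4D9 mouse of pool 4 (0.58, adjusted p = 0.18). Of the S phase genes, 6 of 28 in WT and 4 of 28 in AppSAA mice were called higher in the same clusters, and the part of these genes in the result was not tested. 4D9 against ATV:ISO gave 0 members by edgeR, DESeq2 and limma-voom, 0 with an unadjusted p under 0.05 and 0% of genes, with 51 at an unadjusted p under 0.05.

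Plaque-associated cluster 1 gave the fewest calls of the clusters compared between AppSAA ATV:4D9 and ATV:ISO mice. In AppSAA mice Tubb5 was at 258.3, 263.9, 244.0 and 269.8 CPM with ATV:ISO and at 385.7, 316.8, 286.2 and 317.3 CPM with ATV:4D9, and the groups did not overlap. The log2 difference of 0.39 ± 0.11 was not called by edgeR (adjusted p = 0.088) and was called by DESeq2 and with the block (0.38, adjusted p = 0.00030). Stmn1 differed by 0.01 ± 0.15 and Tuba1b by 0.24 ± 0.10, the latter called with the block (0.23, adjusted p = 0.015). In all, edgeR and limma-voom called 0 of the 8 members, DESeq2 1, and 3 had an unadjusted p under 0.05, against 1.54% of 12182 genes called. For 4D9 the count was 0 by all 3 tools, with 0 members and 48 genes at an unadjusted p under 0.05 and 0% of genes called.

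Cluster 2 had cells in every mouse, 1.35% of the cells in WT ATV:ISO, 47.8% in WT ATV:4D9 and 35.4% in AppSAA ATV:4D9 mice. It was not free of cell cycle transcripts. In the WT ATV:4D9 mouse of pool 1, 741 of 2015 cells had no UMI of the 8 genes above among the 3000 drawn. Over all mice, 1122 cells of cluster 2 fall in the S-leaning cluster of the finer clustering. Tubb5 was at 638.9, 363.5, 469.4 and 506.4 CPM in the WT ATV:ISO cells of this cluster and at 938.1, 811.0, 893.0 and 865.2 CPM in the WT ATV:4D9 cells. The control mice were more scattered, from 23 to 42 cells each, and stayed below the treated ones. The rise was 0.85 ± 0.13 on the log2 scale, beside 1.08 ± 0.20 for Stmn1 and 0.83 ± 0.13 for Tuba1b (edgeR, adjusted p = 0.00012, 0.0016 and 0.00016, with 3.41% of 9618 genes called higher). With the block Tuba1c (0.63, adjusted p = 0.027) and Tubb4b (0.47, adjusted p = 0.034) were called too. Tubb6, at 16.6 to 38.1 CPM in controls and 20.5 to 28.7 CPM after ATV:4D9, did not separate the groups within this cluster (-0.05 ± 0.31).

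In AppSAA mice the same cluster gave 0.76 ± 0.12 for Tubb5, 0.63 ± 0.12 for Tuba1b, 0.58 ± 0.15 for Tubb4b and 0.51 ± 0.16 for Tuba1c (edgeR, adjusted p = 9.2e-05, 0.00066, 0.012 and 0.032, with 6.89% of genes called higher). Tubb4b and Tuba1c were lost without the ATV:ISO mouse of pool 3 (0.48 and 0.34, adjusted p = 0.094 and 0.26), Tubb4b without that of pool 4 (adjusted p = 0.069), and Tuba1c without the ATV:ISO mouse of pool 1 or the ATV:4D9 mouse of pool 1 or 4 (adjusted p = 0.086, 0.11 and 0.058). Stmn1 was already at 256.2, 294.1, 181.9 and 209.2 CPM in the ATV:ISO cells and reached 285.4, 281.6, 223.9 and 251.6 CPM, overlapping, with a difference of 0.20 ± 0.17 (adjusted p = 0.46). After removal of cells with UMIs of the 8 cell cycle genes named above, again judged after thinning, it was 0.70 (edgeR, adjusted p = 0.0024). Between the ATV:4D9 groups 0 members were called by edgeR, DESeq2 and limma-voom in cluster 2, with 1 at an unadjusted p under 0.05 and 1.95% of genes called, and with the block Tuba1a (-0.22, adjusted p = 0.033) and Tuba1c (0.24, adjusted p = 0.050) were.

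Interferon cluster 5, which made up 22.4% of the cells of AppSAA ATV:4D9 mice, had members both below and above cluster 2. Within the 8 ATV:4D9 mice its level was below that of cluster 2 by a median log2 ratio of -0.52 for Tuba1c and -0.29 for Tubb5, in 8 of 8 mice each, and of -0.35 for Tubb4b and -0.22 for Tuba1b, in 7 and 6 of 8. Stmn1 was split by genotype, above cluster 2 in the 4 WT mice and below it in the 4 AppSAA mice. Its median of -0.26 over the 8 mice thus describes neither genotype. Tubb6 was at 0.24, above 0 in 7 of 8. Stmn1 had 48.7, 49.7, 40.6 and 56.6 CPM in its AppSAA ATV:ISO cells and 197.1, 181.8, 132.3 and 159.0 CPM in its AppSAA ATV:4D9 cells, clearly apart. The rise was 1.91 ± 0.21, with 1.94 ± 0.39 for Tubb6, 1.73 ± 0.21 for Tuba1c, 1.19 ± 0.14 for Tubb5, 1.09 ± 0.11 for Tuba1b and 0.78 ± 0.17 for Tubb4b (edgeR, adjusted p from 4.0e-08 to 0.0018, with 15.6% of 9869 genes called higher). All 28 S phase genes were called higher in the same contrast. WT ATV:4D9 mice had more Stmn1 in this cluster, 362.0, 291.0, 316.6 and 263.7 CPM, and the AppSAA group was lower by 0.80 ± 0.17 on the log2 scale (edgeR, adjusted p = 0.0060, with 6.96% of genes called). With the block Tuba1b (-0.33, adjusted p = 0.0022) and Tubb5 (-0.31, adjusted p = 0.011) were also called as lower, limma-voom and DESeq2 each added Tuba1b (-0.33, adjusted p = 0.025 and 0.037), and 25 of 28 S phase genes were lower in the main fit. Only 1 WT ATV:ISO mouse had the 20 cells required for a sum in cluster 5, so ATV:4D9 could not be tested there in WT mice.

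Within cycling cluster 4 itself only the ATV:4D9 groups were compared by a test, where 2.79% of 11342 genes were called. The AppSAA ATV:ISO and AppSAA 4D9 mice also had at least 20 cells each there, and were not tested. Tubb6 was at 28.2, 20.7, 27.8 and 28.2 CPM in WT and at 50.96, 30.9, 39.4 and 39.4 CPM in AppSAA cells, every AppSAA mouse higher. The difference of 0.71 ± 0.14 was called (edgeR, adjusted p = 0.0020), alone among the members, and Stmn1 was added with the block (0.23, adjusted p = 0.050).

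By cluster, with no test since the clusters were made from these cells, the members fell into 2 patterns. Stmn1, Tubb5, Tuba1b, Tubb4b, Tuba1c and Tubb6 had their highest median over the mice with at least 20 cells in cycling cluster 4, at 1294, 1542, 1241, 272, 106 and 39.4 CPM. Their next highest was in cluster 2, at 238, 555, 505, 73.3, 43.0 and 25.6 CPM. Cluster 4 rests on 16 mice, none of them WT ATV:ISO, and Tubb4b spanned 120 to 702 CPM over them. The order of the clusters pools groups that differ in level. In WT ATV:4D9 mice the median of Tubb6 was 38.7 CPM in interferon cluster 5, 28.0 CPM in cluster 4 and 26.4 CPM in cluster 2. Tuba1a and Tubb2a peaked in homeostatic cluster 3, at 264 and 111 CPM, and Tuba1a was at 95.2 CPM in plaque-associated cluster 1 and 104.7 CPM in interferon cluster 5, over 16 and 17 mice. For 15 immediate early genes, cluster 3 likewise ranked first, with a median summed level of 32557 CPM against 5307 CPM in cluster 0, and the part of these genes in the Tuba1a level was not tested.

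Within each of the 8 ATV:4D9 mice the ratio of cluster 4 to cluster 2 differed between the members. The median log2 ratio was 1.91 for Stmn1, 0.89 for Tubb4b, 0.77 for Tubb5, 0.68 for Tuba1b and 0.39 for Tuba1c, above 0 in 8 of 8 mice for each. For Tubb6 it was 0.15, above 0 in 7 of 8. Tuba1a was at 0.00 and Tubb2a at -0.37, below 0 in every mouse. In the 8 AppSAA mice given ATV:ISO or 4D9 the ratio was 3.11 for Tubb4b, 3.02 for Stmn1, 2.15 for Tuba1c, 1.70 for Tubb5, 1.51 for Tuba1b and 1.13 for Tubb6, above 0 in 8 of 8 mice for each. Cluster 2 in the ATV:4D9 mice in turn exceeded their homeostatic clusters by 2.14 for Tubb6, 1.93 for Stmn1, 1.20 for Tuba1c, 1.08 for Tubb5, 1.05 for Tuba1b and 0.60 for Tubb4b, in 8 of 8 mice each, and fell short of them by 0.79 for Tuba1a and 0.52 for Tubb2a.

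**Figure D3:**
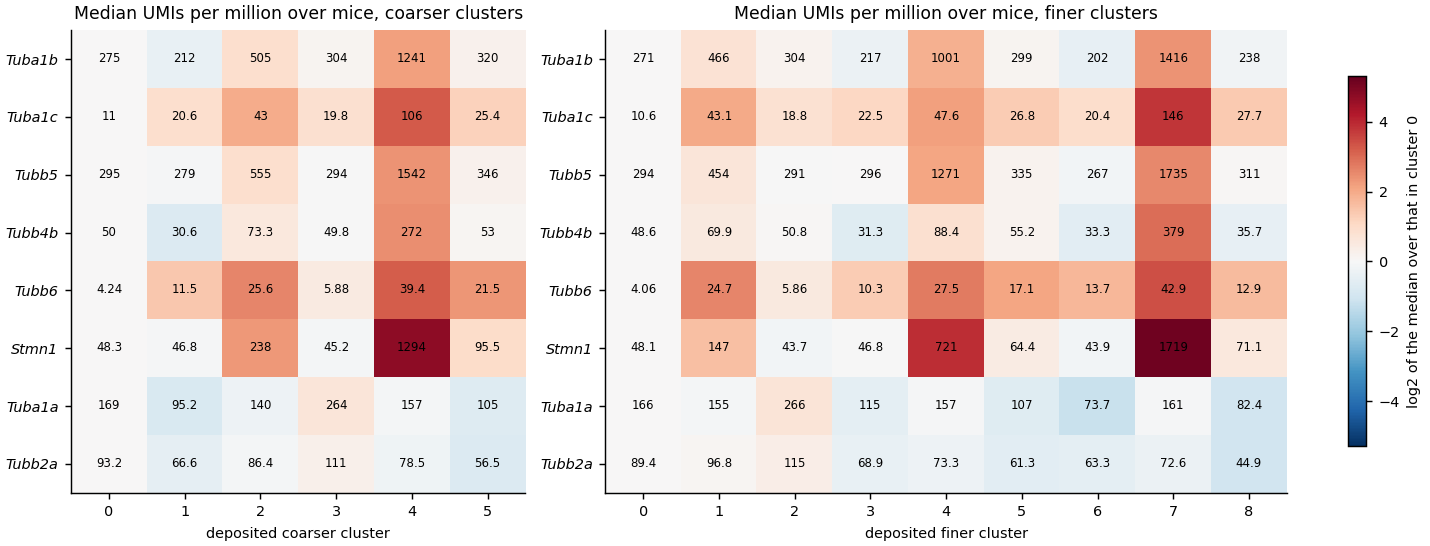
Median CPM of each member over the mice with at least 20 cells (printed numbers) in the 6 coarser and 9 finer deposited clusters, coloured by the log2 ratio to cluster 0 of the same clustering. Coarser cluster 4 and finer clusters 4 and 7 are high in every member but Tuba1a and Tubb2a, and Tuba1a is highest in coarser cluster 3 and in finer cluster 2. Finer cluster 4 rests on 8 mice, all ATV:4D9, and finer cluster 7 on 16.

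The finer clustering divides the cycling cells into cluster 4, which leans to S phase, and cluster 7, which leans to G2 and M phase. In WT ATV:4D9 mice the median of Tubb4b was 88.4 CPM in finer cluster 4 and 262 CPM in finer cluster 7, that of Tuba1c 43.0 and 104 CPM, and that of Stmn1 713 and 1519.5 CPM. Tubb5 and Tuba1b differed less, at 1271 and 1806 CPM and at 983 and 1447 CPM. In AppSAA ATV:4D9 mice Tubb4b was at 92.5 and 311 CPM, Tuba1c at 50.8 and 129.5 CPM, and Stmn1 at 763 and 1522 CPM. In the 8 ATV:4D9 mice the log2 ratio of finer cluster 7 to 4 was 1.63 for Tubb4b, 1.28 for Tuba1c, 1.01 for Stmn1, 0.56 for Tuba1b, 0.51 for Tubb5 and 0.41 for Tubb6, always above 0. The S-leaning cells exceeded responding finer cluster 1 in Stmn1 (1.61), Tubb5 (0.61), Tuba1b (0.50) and Tubb4b (0.18) in 8 of 8 mice, and Tuba1c was below it in 8 of 8 mice (-0.12).

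A split of coarser cluster 4 by the summed S phase and G2 and M phase genes, which include none of the 8 members, again put Tubb4b, Tuba1c and Stmn1 first. Between the S part and the G2 and M part of the same mouse, Tubb4b went from a median of 91.3 to 266 CPM, Tuba1c from 49.9 to 111 CPM and Stmn1 from 772 to 1431 CPM, with median log2 ratios of 1.49, 1.12 and 0.84 in 8 of 8 mice. Tuba1b, Tubb6 and Tubb5 had 0.45, 0.42 and 0.39, also in 8 of 8, and Tuba1a had 0.01.

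The rare cycling cells of AppSAA mice given ATV:ISO or 4D9 carried more Tubb4b, Tuba1c and Stmn1 than those of ATV:4D9 mice. Tubb4b in cluster 4 was at 702.3, 525.5, 352.9 and 509.9 CPM in AppSAA ATV:ISO mice, at 501.4, 614.8, 445.8 and 376.5 CPM in AppSAA 4D9 mice and at 191.7, 169.1, 189.8 and 152.2 CPM in AppSAA ATV:4D9 mice. The last group lay entirely below the others, and these groups were not tested against each other within cluster 4. The same cells differed in phase, with 4 S and 23 G2 and M cells in the AppSAA ATV:ISO mouse of pool 1 and 718 and 406 in the AppSAA ATV:4D9 mouse of that pool, and the part of phase in these levels was not tested.

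The mix of isotypes changed with ATV:4D9 over all cells. In WT mice Tuba1b made up 55.7% ± 2.85 (SD, n = 4) of the UMIs of the 3 alpha-tubulin members with ATV:ISO and 80.1% ± 0.62 with ATV:4D9, while Tuba1a fell from 41.5% ± 2.97 to 15.1% ± 0.84. The mice of the groups did not overlap for either isotype. Of the 4 beta-tubulin members Tubb5 went from 64.4% ± 3.61 to 83.4% ± 1.06 and Tubb2a from 22.9% ± 3.45 to 6.66% ± 0.96. The totals rose at the same time, from 520 to 1088 CPM for alpha and from 444 to 1324 CPM for beta members.

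In AppSAA mice the mix with ATV:4D9 was close to that of WT mice. Tuba1a held 32.5% ± 2.92 of the alpha members with ATV:ISO, 32.9% ± 1.13 with 4D9 and 14.1% ± 0.96 with ATV:4D9. Tuba1b held 62.5%, 62.03% and 79.99% in the same order. Outside cluster 4 the Tuba1b share of WT ATV:4D9 mice was 76.1%, against 55.1% in WT ATV:ISO mice. Within the homeostatic clusters the alpha mix barely differed, with Tuba1a at 43.1% ± 3.11 in WT ATV:ISO and 42.9% ± 0.90 in WT ATV:4D9 mice.

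**Figure D4:**
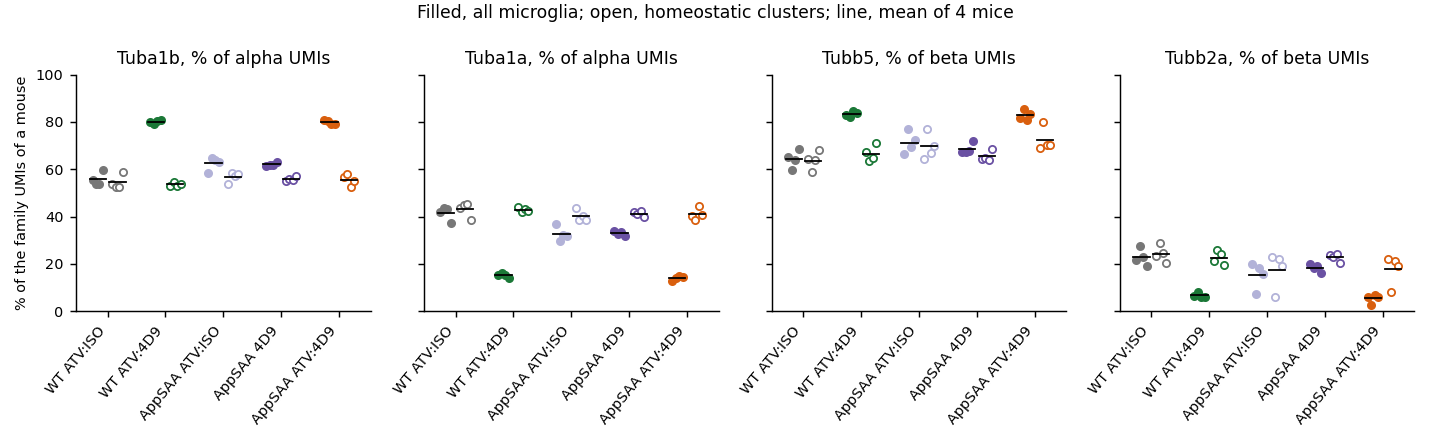
Share of the alpha-tubulin UMIs held by Tuba1b and Tuba1a and of the beta-tubulin UMIs held by Tubb5 and Tubb2a (vertical axis, percent of the members of that family) in the 4 mice of each group, over all microglia (filled) and the homeostatic clusters (open), with a line at the mean. Both ATV:4D9 groups have Tuba1b near 80% in filled points, and open points keep Tuba1a near 40% in every group.

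Tubb2a was low in 2 mice regardless of cluster or treatment, both of pool 2. It stood at 28.5 CPM in the AppSAA ATV:ISO mouse and at 24.8 CPM in the AppSAA ATV:4D9 mouse of that pool, and at 67.5 to 122.3 CPM in the other 18 mice. Tubb2b, the neighbouring isotype 49.0 kb away at chr13:34127008-34130354, was also low in the 2 mice of pool 2, at 7.80 and 6.16 CPM against 38.7 to 56.2 CPM. Tubb2b was looked at after these values were seen.

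Of 9 genes with a mean of at least 2 CPM within 600 kb of Tubb2a, 6 were lower in both mice than in all other 18 relative to their group, namely Serpinb6a, Bphl, Tubb2a, 4930447K03Rik, Tubb2b and Pxdc1, the last 550 kb away. Nqo2, Ripk1 and Psmg4 in the same window were not. Tubb2a and Tubb2b were already known to be low in these mice before this count. The share of all genes lower in both mice was not counted. Tuba1a and Tubb5, on other chromosomes, did not stand apart in these mice, and the cause was not tested. Leaving both mice out changed no call of Tubb2a in all or non-cycling microglia, and in the homeostatic clusters it made the rise of Tubb2a in WT ATV:4D9 mice a call (0.52, adjusted p = 0.040) and in cluster 2 that of Tubb6 in AppSAA ATV:4D9 mice (0.69, adjusted p = 0.043). In cluster 5, leaving out the AppSAA ATV:4D9 mouse of pool 2 alone made Tubb2a a call against ATV:ISO (0.53, adjusted p = 0.029, from 0.29, adjusted p = 0.51).

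**Figure D5:**
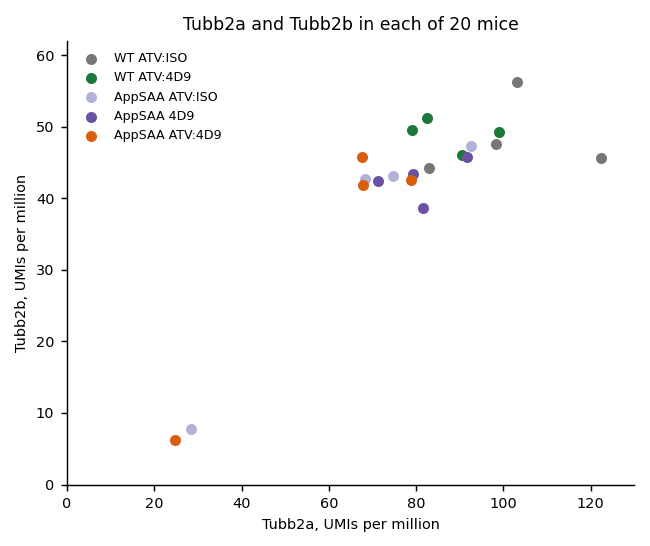
Tubb2b against Tubb2a in CPM over all microglia, 1 point per mouse, coloured by group. The AppSAA ATV:ISO and AppSAA ATV:4D9 mice of pool 2 lie together at the lower left, at 28.5 and 24.8 on the horizontal axis, apart from the other 18.

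The other genes of the microtubule system were counted in lists, fixed with earlier results of these data known. Of 17 genes of the gamma-tubulin ring complex and of nucleation, 16 were called higher and 1 lower in WT ATV:4D9 against WT ATV:ISO mice, with a median log2 fold change of 0.79 beside -0.05 over all genes tested, of which 30.8% were called higher and 4562 of 14058 lower. Haus4, Haus1 and Haus8, subunits of the augmin complex that branches spindle microtubules, rose by 1.93 ± 0.11, 1.66 ± 0.11 and 1.40 ± 0.10 (edgeR, adjusted p = 5.8e-12, 5.3e-11 and 2.3e-10). Tubg1, the gamma-tubulin that seeds new microtubules, rose from 14.8 ± 1.77 to 41.9 ± 3.31 CPM (SD, n = 4), and it was among 4 of the 6 tested other tubulin genes called higher, with 0 lower.

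Of 22 genes that fold tubulin, 16 were called higher and 2 lower, with a median of 0.57. Tcp1, Cct3 and Cct6a, subunits of the chaperonin that folds new tubulin, rose by 1.13 ± 0.09, 1.01 ± 0.09 and 1.00 ± 0.08 (edgeR, adjusted p = 5.4e-10, 1.3e-08 and 6.6e-10). By contrast the genes that bind microtubule ends and the lattice moved in both directions, with 8 of 24 higher, 7 lower and a median of -0.02, and their share of higher calls was close to that of all genes. Clasp2, which stabilises growing ends, fell by 0.74 ± 0.14 on the log2 scale, while Kif2a, which removes dimers from ends, and Dync1h1, the heavy chain of the dynein motor, rose by 0.68 ± 0.12 and 0.63 ± 0.11 (edgeR, adjusted p = 0.00011, 4.6e-05 and 4.5e-05).

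Of 22 genes for tubulin modification, severing and the control of tubulin messages, 9 were higher and 4 lower, with a median of 0.16. In the same WT contrast 30.8% of all genes were called higher and 4562 of 14058 lower. Fignl1, a relative of the severing enzyme fidgetin with a known role in DNA repair, rose by 4.68 ± 0.17. Atat1, which acetylates alpha-tubulin, fell by 0.97 ± 0.09, and Ttc5, which marks tubulin messages for decay when free dimers are abundant, fell by 0.56 ± 0.06 (edgeR, adjusted p = 3.3e-15, 9.9e-09 and 1.5e-07). The other stathmin genes were close to absent, with 1 of 3 tested and 0 called. In AppSAA mice the counts of higher and lower genes were 14 and 0 for nucleation, 16 and 2 for folding, 8 and 7 for ends and lattice, and 8 and 3 for modification, where 27.9% of all genes were called higher and 3812 of 14058 lower.

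These counts are over all microglia, in which cycling cluster 4 went from 0.351% to 39.95% of the cells in WT mice. Outside that cluster, nucleation had 12 of 17 genes called higher and 1 lower in WT mice, with a median of 0.47, and folding had 17 of 22 higher and 0 lower, with a median of 0.66. Ends and lattice had 9 of 24 higher and 8 lower, and modification 7 of 20 higher and 3 lower, beside 31.1% of all genes higher and 3796 of 13663 lower. The AppSAA counts of higher and lower genes outside cluster 4 were 12 and 0, 16 and 1, 7 and 5, and 7 and 3 in the same order, beside 26.1% of all genes higher.

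The genes whose pattern was most like that of each of 7 members over 109 sums of a mouse and a coarser cluster are given as a description, since the sums share mice and depth. For Stmn1 they were Cks1b, Smc2 and Tacc3 (Pearson r of log2 CPM 0.97, 0.97 and 0.97), for Tubb5 Cks1b, Smc2 and Tk1 (0.96, 0.96 and 0.96) and for Tuba1b Smc2, Ezh2 and Tk1 (0.97, 0.96 and 0.95). For Tubb4b they were Ube2s, Cks2 and Hmgn2 (0.94, 0.93 and 0.92), and for Tuba1c Cks1b, Hmgn2 and Tagln2 (0.92, 0.91 and 0.91). Tubb6 lay with Ybx1, Anp32b and Rps27l (0.91 each). Tubb2a lay with Tubb2b, 4930447K03Rik and Stard3nl (0.84, 0.72 and 0.70). Tubb2b and 4930447K03Rik lie near Tubb2a and were low in the same AppSAA mice, whose sums are among the 109. The part of those mice in these correlations was not tested. Among the members themselves Tuba1b and Tubb5 were the closest pair at 0.97, and Tuba1a correlated with Tuba1b at 0.04.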

How the data were processed

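Microglia of 20 mice were measured as single cells. Per the labels and the study's methods, the authors made the deposited raw UMI counts with Cell Ranger 6.1.1 on mm10, traced each cell to its mouse through CellPlex oligos, and gave each cell's Seurat cluster. The deposited counts were summed per mouse over all cells, over cells outside cluster 4 and within clusters, where a mouse had at least 20 cells, and scaled to CPM for display. The test was edgeR's robust quasi-likelihood F-test over all groups (version 4.0.16, R 4.3.3, TMM after filterByExpr, Benjamini-Hochberg over all genes tested, called at an adjusted p of 0.05). Every adjusted p in the text is from such a fit unless DESeq2 1.42.0 or limma-voom (limma 3.58.1) is named. SE is the log2 fold change over the square root of F. No doublet caller was run here, and how doublets were treated before deposit is not given in the sources used here. The main fit had no pool term, so its errors and p-values measure the spread between mice with differences between pools included.

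The pool number was also used as a block. Mice of the same pool deviated together, with correlations of 0.144 to 0.571 over 40 pairs within pools, so the numbers pair the mice. The members and gene lists were chosen with earlier results of these data known. Other genes are named by rule, the 3 of each list with the largest change among those called with a mean of at least 10 CPM, and the 3 most like each member by Pearson r, which are not reported here for Tuba1a. Alternatives were RLE size factors, no filter, DESeq2, limma-voom, the block, cells of 1000 to 25000 UMIs, at least 50 cells per sum, each mouse left out, and cells without cell cycle UMIs. The choices of 8 core cell cycle genes, of leaving out both mice low in Tubb2a and of the finer cycling clusters were added after seeing the data. The fit was tested on simulated counts. Python 3.11.15 was used for sums and plots.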

Additional observations from a re-analysis of the deposited data

Results flagged for a closer look

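Within groups of 4 mice, 5 of 80 groups held a mouse far from the other 3, and chance flags about 1 in 20 groups. Tubb4b stood at 127.6 CPM over all microglia in the WT ATV:4D9 mouse of pool 1 against 98.5 to 100.1 CPM in the others, and at 90.4 CPM in its non-cycling cells against 76.2 to 78.0 CPM. Tubb6 was low in the WT ATV:4D9 mouse of pool 2, at 19.9 CPM against 27.2 to 27.9 CPM. In the AppSAA ATV:4D9 mouse of pool 1 Tubb6 was high, at 45.6 CPM over all microglia against 24.8 to 27.7 CPM and at 43.2 CPM in non-cycling cells against 22.6 to 24.2 CPM. Each of these mice still lay above every mouse of its ATV:ISO group for that gene.

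The response of Stmn1 to ATV:4D9 differed between genotypes over all microglia, with an interaction of -0.93 on the log2 scale (edgeR, adjusted p = 0.0061).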

How the results depend on the processing

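No called value reversed. Of the member fold changes, 5489 kept their side of the threshold, 63 became and 48 ceased to be calls, and 213 that were not called changed sign. Most of these refits left out a single mouse, often of a group outside the comparison, so little change was possible in many of them. The pool as a replicate block changed these counts of members called: between the ATV:4D9 groups 0 became 2 in all microglia, non-cycling cells and cluster 2, 1 became 2 in cycling cluster 4 and 1 became 3 in cluster 5. With the block the interaction went from 1 to 4 (non-cycling 0 to 3), the ATV:ISO groups from 2 to 4 in non-cycling and 0 to 1 in homeostatic cells, AppSAA ATV:4D9 against ATV:ISO in cluster 1 from 0 to 2, and WT in cluster 2 from 3 to 5, in homeostatic cells from 5 to 6 and in non-cycling cells from 6 to 7. DESeq2 gave 1 in cluster 1, 2 in cluster 5 and 1 for the non-cycling interaction, and limma-voom 2 and 1 for the last pair. Cells of 1000 to 25000 UMIs left 2 of 4 calls between the ATV:ISO groups, and leaving out both mice low in Tubb2a left 1 of 2 in non-cycling cells. Without core cell cycle UMIs, and without any cell cycle UMIs, each judged after thinning, 1 member was called between the ATV:4D9 groups and 1 in the interaction. The Tuba1b share in WT ATV:4D9 mice was 76.1% in non-cycling cells against 80.1%. Leaving out each mouse gave 0 to 1 between the ATV:4D9 groups in all and in non-cycling cells, 1 to 2 in clusters 4 and 5, 1 to 2 for the interaction (non-cycling 0 to 3), 3 to 5 for the ATV:ISO groups (non-cycling 1 to 4), 3 to 6 for homeostatic cells of WT mice and 2 to 4 for cluster 2 of AppSAA mice, where 4 is also the count with every mouse. In cluster 5 it gave 6 to 7 for AppSAA ATV:4D9 against ATV:ISO, the 7 without the ATV:4D9 mouse of pool 2. The 6 in homeostatic cells came without the WT ATV:ISO mouse of pool 1 or 1 of 6 mice of the other groups. The other highest counts came without the AppSAA ATV:4D9 mouse of pool 1, but in cluster 4 without the AppSAA ATV:ISO mouse of pool 3, which also gave the 2 in cluster 2. The 3 in homeostatic cells came without the WT ATV:ISO mouse of pool 3 or the WT ATV:4D9 mouse of pool 1. The causes were not tested. The SE of 0.31 for Tubb2a in all microglia came from 1 fit over all groups of 4 mice, the low mice of pool 2 included. In that fit, changes of Tubb2a of the size seen could not be told from spread. The part of the low mice in this SE was not tested.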
